A study of Mus musculus with 16 samples.

Results

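The 9 neuropeptide genes Sst, Vip, Npy, Cck, Tac1, Penk, Pdyn, Crh and Cort were followed through RNA-Seq of single nuclei from the prefrontal cortex (PFC), in WT mice and in 3xTg-AD mice, a model of Alzheimer's disease. They were taken by name as 9 of the 19999 genes of the count table, all 9 were present, and none was used to draw or name a cell class. Neuropeptides are made as longer precursors, cut and amidated in dense-core vesicles, and released to act on G protein-coupled receptors of nearby cells. In the cortex they are made largely by GABAergic interneurons, and several of them give the main interneuron classes their names. Somatostatin, neuropeptide Y and the opioid peptides mostly inhibit transmission, and corticotropin releasing hormone, the tachykinins and cholecystokinin mostly excite.

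All 16 mice were male and aged 22 weeks, with 4 mice in each group, and each mouse gave 1 library. WT (strain B6;129) and 3xTg-AD mice each formed a control group and an alcohol-exposed group. Alcohol was given as repeated cycles of intermittent vapor, and both the exposed and the control mice received pyrazole, an inhibitor of alcohol dehydrogenase. The exposed mice were also injected with ethanol. By the paper, tissue was taken days after a water maze test, which itself followed the last vapor exposure. Differences with alcohol are therefore those found after exposure had ended. 3xTg-AD mice carry human APP and tau transgenes, which the neuronal Thy1 promoter drives. The genotype was not checked against the counts here. Mice are named by the number in their label. Because every animal is male and from 1 age, the comparisons hold for these only.

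The table held 114512 nuclei and 216742276 unique molecular identifiers (UMIs, each counting 1 captured RNA molecule), with 4955 to 9096 nuclei and 9622031 to 17544364 UMIs per mouse. Clusters of at least 50 nuclei were named from marker genes, and 65227 nuclei (57%) fell into 22 named classes, while 49285 (43%) stayed unnamed. Every named interneuron class raised nearly all of its markers at least 1.5-fold (11 of 11 in Sst-like, 11 of 11 in Pvalb-like, 11 of 11 in Vip-like, 10 of 10 in Lamp5-like and 7 of 8 in Sncg-like nuclei). Of the glutamatergic classes, L5 IT-like nuclei raised 4 of 7, L2/3 IT-like 5 of 7, L5 ET-like 6 of 7 and L5/6 NP-like 7 of 8, and L6 IT-like and L6 CT-like nuclei all of theirs. Clusters were named from these same markers at the same fold, so the counts are no separate check of the names. A gate on the marker UMIs of each single nucleus was also run. It gave the same name to 618 of 3375 Pvalb-like, 339 of 2368 Sst-like and 169 of 1464 Vip-like nuclei. Lamp5-like nuclei kept theirs in 550 of 1292 and Sncg-like nuclei in 103 of 590. The gate left 1924, 1445, 847, 424 and 338 of these unnamed, in that order. Because these names were rebuilt here, values can depart from the study's for that reason alone. Of 112806 distinct barcodes, 1694 (1.5%) occurred in more than 1 library. WT control mice 26 and 27 and 3xTg-AD control mouse 12 stood apart in Gm42418, a transcript that overlaps ribosomal RNA, with at least 17914 CPM (UMIs of the gene scaled to a common total of 1000000 UMIs) where the other mice reached no more than 4249 CPM. In WT control mouse 27, Pvalb-like nuclei were 7.71% of the GABAergic-like nuclei, against 24.2% to 38.5% in the other mice. This mouse held 1530 GABAergic-like nuclei, against 474 to 887 in the others, among them 88.4% of an unnamed cluster of 1085 nuclei, and its Sst-like (5.16%), Vip-like (4.12%), Lamp5-like (2.81%) and Sncg-like (1.44%) shares were low as well. In these sums over nuclei, fewer cells of a type and less RNA per cell cannot be told apart.

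The stretches in which Sst and Cort are most alike are shown first, since near-identical sequence can split reads between genes. Sst and Cort encode sister peptides, and the coding sequence for the shared core of somatostatin and cortistatin is printed here. Letters were read from GRCm38 with the GENCODE annotation, both stretches lie in coding exons on the minus strand, and capitals mark the bases at which the pair differs.
Sst, chr16:23889741-23889768: ctgcaagaacttcttctggaaGacAttc
Cort, chr4:149125279-149125306: ctgcaagaacttcttctggaaAacCttc
Sst and Cort shared 26 of 28 bases there, and the longest run that their transcripts held in common was 21 bases.

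Penk and Crh had no promoter sequence at hand and were not searched. Promoter sequence from RefSeq, 250 bases before to 50 after a gene start on GRCm38, was at hand for the other 7 of the 9 members. It was searched on both strands for the cyclic AMP response element TGACGTCA, for its variant TGCGTCA and for the TATA letters TATAAA, which do not overlap one another. The first is shown for Sst, the gene in which this element was first worked out. The second is shown for the 3 of these 7 searched members that hold it. Each is given in 30 bases with the match in capitals.
Sst, chr16:23890874-23890903, minus strand: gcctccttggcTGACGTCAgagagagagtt
Cort, chr4:149126765-149126794, minus strand: gctccggcttgTGCGTCAccgcgtgagtgt
Tac1, chr6:7554851-7554880, plus strand: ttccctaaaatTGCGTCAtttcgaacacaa
Cck, chr9:121495725-121495754, minus strand: tcctgctggacTGCGTCAgcactgggtaaa
The matches begin 48 bases before the RefSeq start in Sst, 20 in Cort, 199 in Tac1 and 49 in Cck, and the Sst match lies within the first exon of the GENCODE transcript. Of 32851 promoters, 1.79% hold the full element, 2.12% the variant and 13.6% the TATA letters, which were found in Vip 30, 147 and 157 bases before its start. A match is a description of the letters and not a site that was measured here.

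Among the tested classes, each of the 9 genes was highest in an interneuron class per nucleus, from 1 class above the background for Tac1 to 4 interneuron classes for Npy, and each was also counted in glia, from 0.00455 UMIs per non-neuronal nucleus for Crh to 1.15 for Cck. Sst had 56423 UMIs in all and was detected in 33% of nuclei, Cck had 173412 UMIs in 73.2%, and Crh had the fewest, with 926 UMIs in 0.714%. Non-neuronal nuclei held the more abundant members in similar proportions, with 18.8% to 21.7% of their neuropeptide UMIs from Sst, 59% to 64.3% from Cck, 8.99% to 11.8% from Npy and 3.93% to 5.27% from Vip across 7 non-neuronal classes. The rarer members varied more, from 1.13% to 2.31% for Tac1, 0 to 2.03% for Penk, 0.375% to 0.782% for Pdyn, 0 to 0.357% for Crh and 0.187% to 0.891% for Cort. The level in the 18074 named non-neuronal nuclei of the same mouse was therefore used as the background for each gene. Of 99 pairs of a gene and a neuronal class, 23 held more UMIs per nucleus than this background, 13 held fewer and 63 did neither, by a two-sided exact permutation test over the 16 mice adjusted over the pairs. Of the tested classes, Microglia-PVM-like nuclei were the shallowest, with a median of 787 UMIs. The median nucleus held 1021 UMIs in the non-neuronal classes, 1345 to 2045.5 in the 5 tested interneuron classes and 1669 to 3176 in the tested glutamatergic classes. In CPM, which divides by this depth, 15 pairs were higher and 61 lower, and no glutamatergic class was higher for any member.

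**Figure D1:**
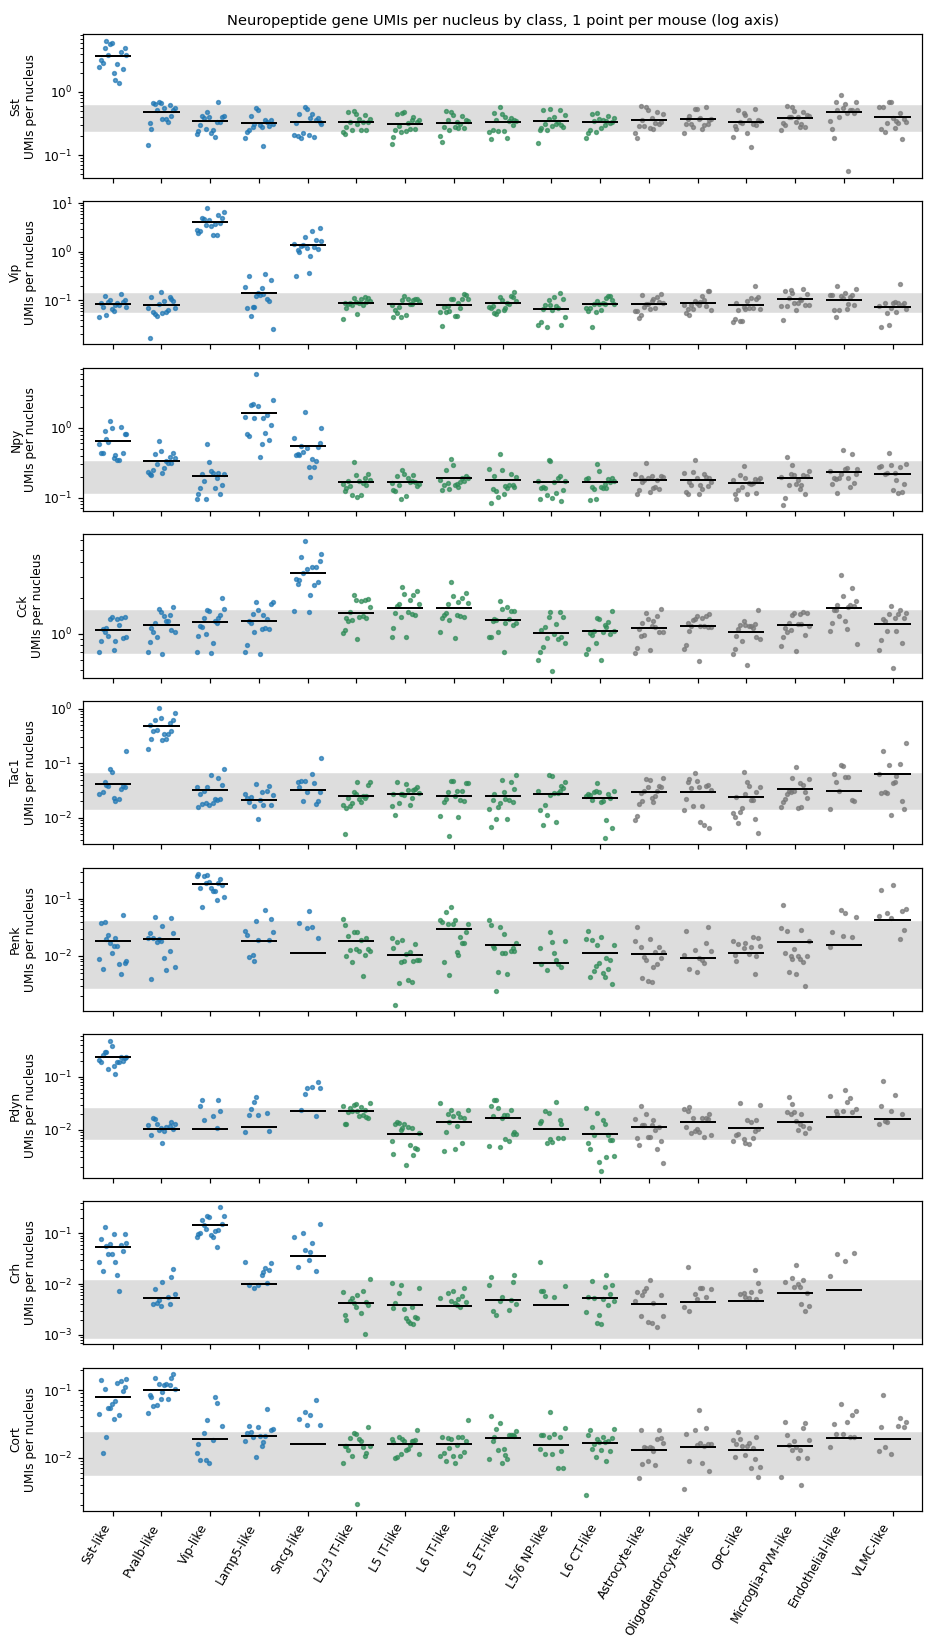
UMIs per nucleus of each gene (log axis) in 17 classes, with 1 point per mouse, a bar at the mean, and a grey band for the range of the named non-neuronal nuclei over mice; mice with no UMI of the gene are left out of the points. Sst-like nuclei stand above the band for Sst, Vip-like and Sncg-like nuclei for Vip, and Pvalb-like nuclei for Tac1, while the glutamatergic classes in green lie mostly within it.

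Somatostatin, which acts on the dendrites of pyramidal neurons, was highest, among the classes tested, in Sst-like nuclei. They held 3.65 ± 1.58 Sst UMIs per nucleus (SD, n = 16 mice) against 0.374 ± 0.109 in non-neuronal nuclei, a 9.77-fold ratio, and were higher in 16 of 16 mice. Pvalb-like nuclei were 1.29-fold above the background per nucleus, in 14 of 16 mice, but below it in CPM (234.8 against 291.9), and the remaining neuronal classes did not rise above it. Sst-like nuclei were 2.07% of all nuclei and held 16% of all Sst UMIs. After each nucleus was thinned to 1000 UMIs, 69.7% ± 12.1 of the Sst-like nuclei had at least 1 Sst UMI, against 22.4% ± 5.74 of non-neuronal nuclei (85.6% and 29% before thinning, at median depths of 2027.5 and 1021 UMIs). Thinning left out 68 of 2368 Sst-like, 272 of 1464 Vip-like, 95 of 1292 Lamp5-like, 163 of 3375 Pvalb-like and 8677 of 18074 non-neuronal nuclei, and of the Vip-like nuclei 71, 101, 68 and 32 in WT controls, exposed WT mice, 3xTg-AD controls and exposed 3xTg-AD mice. The genes whose pattern over the 22 classes was most like that of Sst were Crhbp, which binds corticotropin releasing hormone (Pearson's r = 0.93), Eef1e1 and Extl2 (both 0.84). Crhbp is itself a marker of the Sst-like class, and these correlations describe 22 classes that share the same mice.

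Cortistatin, the sister peptide of somatostatin, was counted in Pvalb-like as well as in Sst-like nuclei. Cort reached 0.102 ± 0.0369 UMIs per nucleus in Pvalb-like nuclei, 7.16-fold above non-neuronal nuclei in 16 of 16 mice. In Sst-like nuclei it reached 0.0786 ± 0.0441, a 5.54-fold ratio, in 15 of 16 mice. These classes did not differ beyond their spread in CPM (50 in Pvalb-like and 36 in Sst-like nuclei, adjusted p = 0.0505, exact permutation within mice, higher in 12 of 16 mice). The genes most like it were Rbp4 (r = 0.91), a retinol carrier, Lhx6 (0.88), a transcription factor of both classes, and Tmem132c (0.87). Lhx6 and Tmem132c are markers of these classes.

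Vasoactive intestinal peptide, made by interneurons that inhibit other interneurons, gave the steepest contrast between classes. Vip-like nuclei held 4.15 ± 1.66 Vip UMIs per nucleus against 0.0889 ± 0.024 in non-neuronal nuclei, a 46.7-fold ratio. Sncg-like nuclei, which derive from the same lineage, held 1.41 ± 0.731, a 15.8-fold ratio, and both were higher in 16 of 16 mice. On the CPM scale Vip-like nuclei were above Sncg-like nuclei (2791 against 610 CPM) and these above Microglia-PVM-like nuclei (105 CPM), each in 16 of 16 mice (adjusted p = 0.000137 for both, exact permutation within mice). Vip-like nuclei were 1.28% of the nuclei and held 32.1% of all Vip UMIs. After thinning, 78.4% ± 7.24 of them had a Vip UMI, against 6.01% ± 1.53 of non-neuronal nuclei (81.4% and 7.88% before thinning), and 46.4% had at least 3. The genes most like Vip were Adarb2 (r = 0.84), a marker of the class, Cnmd and 5330429C05Rik (both 0.83).

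Corticotropin releasing hormone, which drives the stress axis and acts within the cortex through Crhr1, was highest in Vip-like nuclei. They held 0.144 ± 0.0696 Crh UMIs per nucleus, 31.7-fold above non-neuronal nuclei at 0.00455 ± 0.00259. Sst-like nuclei followed at 0.0537 ± 0.034, an 11.8-fold ratio, both in 16 of 16 mice, and Sncg-like nuclei at 0.0352 ± 0.0451 were higher in 9 of 16 mice. In CPM, Vip-like nuclei were above Sst-like nuclei (96.6 against 24.1) and these above Sncg-like nuclei (24.1 against 16.7, adjusted p = 0.0328, exact permutation within mice, higher in 10 of 16 mice). The second test was on log2(CPM + 1), with a mean difference of 1.82 (SD 2.66). The Sncg-like nuclei of a mouse held 0 to 5 Crh UMIs, and mice with 0 weigh heavily on that scale. The part of these low counts in the difference was not tested. Vip itself was among the genes most like Crh (r = 0.8), beside the transcription factor Npas1 (0.85), a marker of Vip-like nuclei, and Prkar2b (0.76).

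Proenkephalin, the precursor of the enkephalins, was also highest in Vip-like nuclei, and L6 IT-like nuclei were the other neuronal class above the background. VLMC-like nuclei, which are part of the background, held 0.0424 Penk UMIs per nucleus, the most of the non-neuronal classes. In CPM they ranked second over all tested classes (29.1). Penk stood at 0.179 ± 0.0603 UMIs per nucleus in Vip-like nuclei against 0.0129 ± 0.00848 in non-neuronal nuclei, a 13.9-fold ratio in 16 of 16 mice. L6 IT-like nuclei held 0.0299 ± 0.0188, 2.31-fold above the background in 15 of 16 mice, and did not differ from it in CPM beyond the spread (10.3 against 9.92). After thinning, 10.4% ± 3.57 of the Vip-like nuclei had a Penk UMI, against 0.961% ± 0.538 of non-neuronal nuclei. Calb2, the gene of calretinin and itself among the class markers, was the gene most like it (r = 0.86), followed by the choline transporter Slc5a7 and by Poldip3 (both 0.77).

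Prodynorphin, the precursor of the dynorphins that act on kappa opioid receptors, was found with Sst rather than with Penk. Sst-like nuclei held 0.239 ± 0.0936 Pdyn UMIs per nucleus against 0.0123 ± 0.00498 in non-neuronal nuclei, a 19.4-fold ratio in 16 of 16 mice. L2/3 IT-like nuclei were 1.84-fold above the background, at 0.0226 ± 0.00617 in 15 of 16 mice, and did not differ from it in CPM beyond the spread (8.94 against 9.72). Sst-like nuclei held 24.2% of all Pdyn UMIs, and after thinning 8.15% ± 2.33 of them had at least 1, against 0.927% ± 0.322 of non-neuronal nuclei, so that most nuclei of this class had none at this depth. The genes most like Pdyn were Emilin2 (r = 0.79), Calb1 (0.78), the calcium-binding calbindin that is a marker of the class, and Fibcd1 (0.72).

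In UMIs per nucleus, neuropeptide Y was above the background in more interneuron classes than the other members. Lamp5-like nuclei, which hold the neurogliaform cells, had 1.61 ± 1.32 Npy UMIs per nucleus against 0.182 ± 0.051 in non-neuronal nuclei, an 8.89-fold ratio. Sst-like nuclei had 0.656 ± 0.288 (3.61-fold), Sncg-like nuclei 0.547 ± 0.366 (3.01-fold) and Pvalb-like nuclei 0.338 ± 0.117 (1.86-fold), all higher in 16 of 16 mice, while in CPM the Pvalb-like nuclei did not pass (163.4 against 141.7, adjusted p = 0.0609, exact permutation within mice). In CPM the order was Lamp5-like (829), Sst-like (300.1) and Sncg-like (218.6), each above the next (adjusted p = 0.000137 and 0.00989, exact permutation within mice), and Sncg-like nuclei did not differ from Microglia-PVM-like nuclei beyond their spread (adjusted p = 0.32). The long-range Sst Chodl-like neurons, of which there were 114 nuclei, held 7.59 Npy and 5.87 Sst UMIs per nucleus when all mice were pooled. They were 0.0996% of the nuclei with 3.07% of all Npy UMIs, and no more than 3 mice had 10 or more of them, so that no test was made. The genes most like Npy were Resp18 (r = 0.89), a protein of the regulated secretory pathway, 1700037H04Rik (0.87) and Ap3s2 (0.85).

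Cholecystokinin was above the background per nucleus in Sncg-like nuclei and in 4 glutamatergic classes, and of these only Sncg-like nuclei stayed above it in CPM. Sncg-like nuclei, which hold the Cck basket cells, had 3.22 ± 1.16 Cck UMIs per nucleus against 1.15 ± 0.256 in non-neuronal nuclei, a 2.8-fold ratio. L5 IT-like nuclei had 1.65 ± 0.453 (1.44-fold), L6 IT-like nuclei 1.63 ± 0.454 (1.42-fold), L2/3 IT-like nuclei 1.5 ± 0.363 (1.3-fold) and L5 ET-like nuclei 1.3 ± 0.303 (1.13-fold), all in 16 of 16 mice. L6 CT-like nuclei were lower than non-neuronal nuclei in 16 of 16 mice, at 1.05 ± 0.254, and Sst-like and L5/6 NP-like nuclei were lower as well. In CPM, the 4 glutamatergic classes turned to 375.3 to 614.8, below the 907.3 of non-neuronal nuclei in 16 of 16 mice. On that scale Sncg-like nuclei were first at 1339.5 and Microglia-PVM-like nuclei second at 1179 (adjusted p = 0.04, exact permutation within mice, higher in 13 of 16 mice). Per nucleus, Microglia-PVM-like nuclei held 1.2 Cck UMIs, against 1.17 over all named non-neuronal nuclei, with mice pooled. Their median depth of 787 UMIs was the lowest of the tested classes, and the part of depth in the CPM order was not tested. The unnamed nuclei held 50% of all Cck UMIs. The genes most like Cck were Seh1l, Atp6v1g1 (both r = 0.88) and Ap2s1 (0.85).

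Tachykinin precursor 1, which encodes substance P and neurokinin A, was placed in 1 class. Pvalb-like nuclei, the fast-spiking basket and chandelier cells, held 0.483 ± 0.23 Tac1 UMIs per nucleus against 0.0312 ± 0.0141 in non-neuronal nuclei, a 15.5-fold ratio in 16 of 16 mice. They were 2.95% of all nuclei with 30.3% of the Tac1 UMIs, and no other neuronal class rose above the background. After thinning, 18% ± 5.24 of them had a Tac1 UMI, against 2.12% ± 0.881 of non-neuronal nuclei (29.9% and 2.94% before thinning). Pvalb, the gene of parvalbumin and a marker of the class, was the most like it (r = 0.88), followed by Rab37 (0.84) and Sucla2 (0.81).

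Against WT controls, alcohol-exposed WT mice had more Npy and more Tac1 in Pvalb-like nuclei, and these were the only member and class pairs that edgeR called in any of the 6 contrasts. UMIs were summed per mouse and class, tested with edgeR over all genes and adjusted by Benjamini-Hochberg within a class and contrast, with a call at an adjusted p of at most 0.05. Of 180 pairs of a member and a class or sum of classes, 109 passed the filter on low counts, with Sst, Npy and Cck in all 20 sets, Vip in 18, Tac1 in 10, Penk and Cort in 6, Pdyn in 5 and Crh in 4. In alcohol-exposed WT mice versus WT controls, 2 of 109 pairs were called, both higher (5 by DESeq2), where 0.0263% of all 159914 gene and class pairs were called. In Pvalb-like nuclei alone, 8 of 8249 genes were called (0.097%), of which 2 were higher (0.0242%), and these 2 were Npy and Tac1. At an unadjusted p under 0.05 there were 32 of 109 pairs, 30 of them higher, against 9.59% of all pairs. Npy had a positive fold change in 19 of 20 sets, 9 of them higher at an unadjusted p under 0.05, and Tac1 in 10 of 10 sets, 5 of them so, and whether Pvalb-like nuclei differed from the other classes in this was not tested.

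In WT controls Npy stood at 115.6, 99.4, 139.3 and 100.3 CPM in the Pvalb-like nuclei of mice 26, 27, 28 and 36. In alcohol-exposed WT mice it stood at 233.9, 210.2, 209.1 and 218.1 CPM in mice 6, 7, 17 and 18. All 4 exposed mice were above all 4 controls, and the groups did not overlap. The log2 fold change was 0.89 (SE 0.173, adjusted p = 0.00646, edgeR). The Pvalb-like nuclei of a mouse held 26 to 130 Npy UMIs in 118 to 274 nuclei.

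Tac1 stood at 91.3, 225.7, 181.4 and 162.2 CPM in the Pvalb-like nuclei of the WT controls, in the same order of mice. In alcohol-exposed WT mice it stood at 333.2, 285.3, 339.4 and 310.4 CPM. WT control mouse 26 was the lowest of all, and the groups again did not overlap. The log2 fold change was 0.95 (SE 0.19, adjusted p = 0.0133, edgeR). The thinned share of Pvalb-like nuclei with a Tac1 UMI was 23.1% ± 1.37 in the exposed mice and 13.7% ± 4.33 in the controls (n = 4 each, exact permutation p = 0.0286, the smallest p this design allows, and adjusted p = 0.321 over 45 such tests).

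The level in non-neuronal nuclei, which free RNA can set, was also higher on average in exposed WT mice for both genes. In non-neuronal nuclei Npy averaged 171.4 ± 23.8 CPM in exposed WT mice and 130 ± 35 in WT controls, and Tac1 27.6 ± 8.68 and 17.6 ± 7.2 (n = 4). The excess of Pvalb-like nuclei over the non-neuronal nuclei of the same mouse was 0.24 ± 0.0885 Npy UMIs per nucleus in exposed WT mice and 0.0613 ± 0.0405 in WT controls (exact permutation p = 0.0286, n = 4 each). In CPM the Npy level of WT controls was not above the background, with 113.7 ± 18.6 in Pvalb-like nuclei against the 130 ± 35 of non-neuronal nuclei. For Tac1 the excess was 0.649 ± 0.252 UMIs per nucleus in exposed WT mice and 0.318 ± 0.137 in WT controls (exact permutation p = 0.0571). In alcohol-exposed 3xTg-AD mice the Npy excess was 0.193 ± 0.0295, against 0.13 ± 0.0577 in 3xTg-AD controls (exact permutation p = 0.143) and against WT controls (p = 0.0286, exact permutation). The Tac1 excess was 0.559 ± 0.178 in alcohol-exposed 3xTg-AD mice and 0.28 ± 0.0585 in 3xTg-AD controls (exact permutation p = 0.0286), and its comparison with WT controls gave an exact permutation p of 0.0857. These p-values are not adjusted, and the pairs were picked because they had been called. The excess is in UMIs per nucleus and is not scaled for depth. In CPM, Tac1 in Pvalb-like nuclei overlapped between exposed 3xTg-AD mice and their controls. The part of depth in the excess was not tested. The part of free RNA in the 2 calls was not tested beyond these values.

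**Figure D2:**
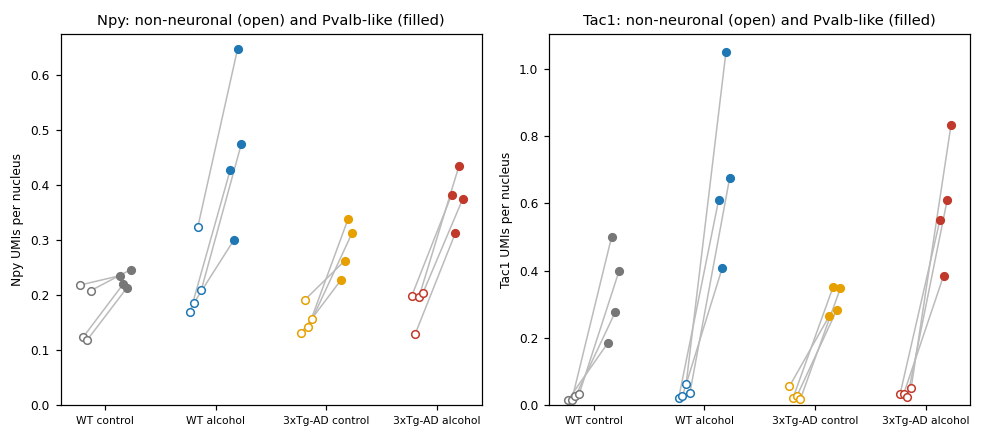
UMIs per nucleus (linear axis from 0) of Npy and Tac1 in the non-neuronal nuclei (open) and the Pvalb-like nuclei (filled) of each mouse, joined by a line, in the 4 groups of 4 mice. Npy lies closest to its background in WT controls, where the excess averaged 0.0613 UMIs per nucleus, and Tac1 lies far above its background in every mouse.

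In 3xTg-AD mice the same pairs were not called. Npy stood at 109.8, 159.1, 201 and 155 CPM in the Pvalb-like nuclei of 3xTg-AD controls (mice 12, 13, 14 and 21) and at 190.3, 127.8, 201.6 and 142.9 CPM in alcohol-exposed 3xTg-AD mice (mice 4, 31, 33 and 34). These groups overlapped over most of their range (log2 fold change 0.1, SE 0.176, adjusted p = 0.948, edgeR). The interaction of genotype and alcohol was -0.79 (SE 0.247, unadjusted p = 0.00213, adjusted p = 0.924, edgeR), so that a difference between the genotypes in the response of Npy was not called. Tac1 stood at 128.6, 213.1, 166.9 and 171.9 CPM in 3xTg-AD controls and at 274.5, 157.9, 283.6 and 317.9 CPM in alcohol-exposed 3xTg-AD mice. All but mouse 31 of the exposed 3xTg-AD mice were above all 4 of their controls (log2 fold change 0.6, SE 0.196, adjusted p = 0.311, edgeR), and the interaction was -0.35 (adjusted p = 0.996).

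Npy was called in 20 of 24 alternatives, at adjusted p-values from 0.00104 to 0.254, and lost without WT control mouse 36 (0.0617), without exposed WT mouse 18 (0.0784), with Gm42418 as a covariate (0.0645) and with classes gated on marker UMIs (0.254). Tac1 was called in 17 of 24, at adjusted p-values from 0.000127 to 0.374, and lost with the covariate (0.224), with the gate (0.374) and without WT control mouse 26 (0.118) or 36 (0.0617) or exposed WT mouse 6 (0.0694), 17 (0.0654) or 18 (0.12). The log2 fold change of Npy stayed between 0.77 and 0.97 over these alternatives, and that of Tac1 between 0.77 and 1.13 except with the gate (0.54).

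No member was called by edgeR in the other 5 contrasts. For alcohol-exposed 3xTg-AD mice versus WT controls, 0 of 109 pairs were called by edgeR and 2 by DESeq2, with 33 at an unadjusted p under 0.05, of which 28 were higher. Of all gene and class pairs, 1.6% were called and 13.7% had an unadjusted p under 0.05. For 3xTg-AD controls versus WT controls, 0 were called by either tool, with 17 unadjusted (of all pairs 0.23% called and 6.64% unadjusted). For alcohol-exposed 3xTg-AD mice versus their controls, 0 were called by either tool, with 13 unadjusted, all higher (0.225% and 9.14%). For 3xTg-AD versus WT mice, both exposed to alcohol, 0 were called by edgeR and 1 by DESeq2, with 17 unadjusted, of which 3 were higher (0.479% and 9.51%). For the interaction 0 were called by either tool, with 6 unadjusted (0.000625% and 4.01%). The DESeq2 calls were Tac1 (0.63) and Vip (0.62) over all nuclei in the first of these contrasts and Pdyn over all nuclei (-0.81) between the exposed groups, on the log2 scale. The median log2 fold change over the 109 pairs was 0.36 in alcohol-exposed WT mice versus WT controls, positive in 98 pairs, and 0.27 in alcohol-exposed 3xTg-AD mice versus WT controls, positive in 84. It was 0.13 between the control groups (74 positive) and 0.1 with alcohol in 3xTg-AD mice (77 positive). It was negative, at -0.13, between the exposed groups (34 positive) and at -0.28 for the interaction (28 positive). The median of all genes stayed between -0.02 and 0.02 in every class and contrast. Normalization within each class holds that median near 0, so it is not a baseline matched to the members. The same gene is counted in several classes of the same mice here, and the contrasts share their control mice.

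**Figure D3:**
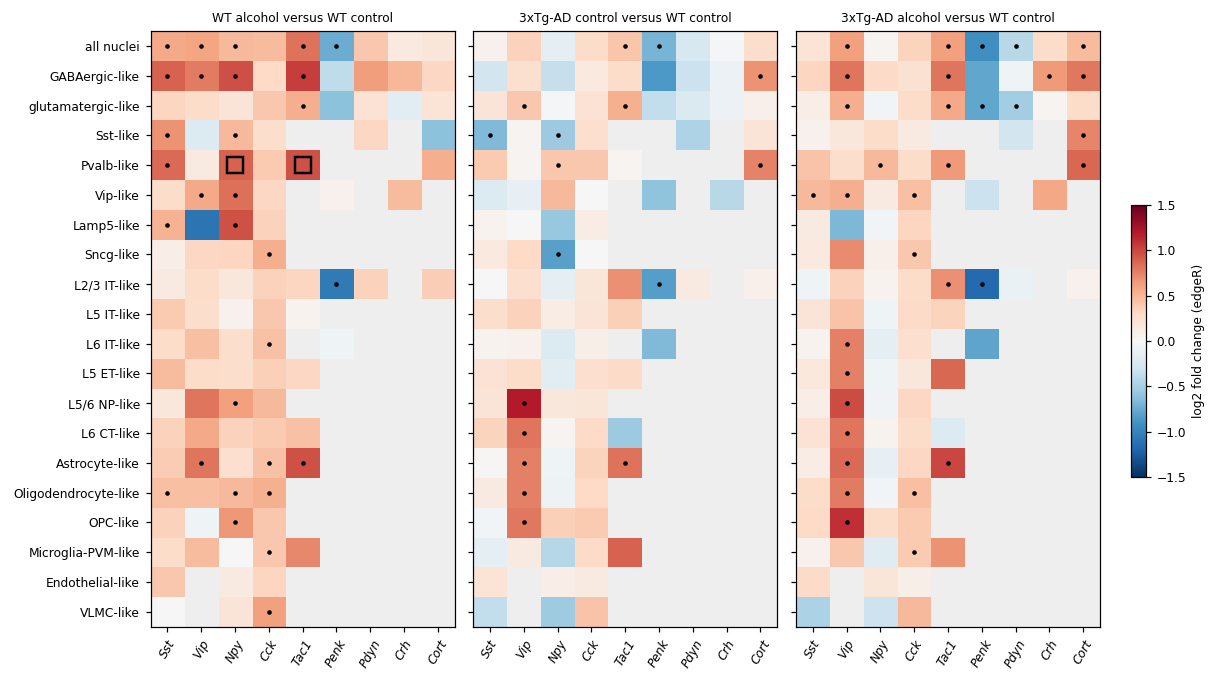
Log2 fold changes (edgeR) of the 9 genes in all nuclei, the 2 sums of neuronal classes and 17 classes, for 3 contrasts with WT controls; squares mark the 2 called pairs, dots an unadjusted p under 0.05, and grey cells were not tested. Exposed WT mice are mostly higher across classes, and Vip carries dots over many classes, glia among them, in alcohol-exposed 3xTg-AD mice.

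Sst in Sst-like nuclei did not pass the test in any contrast. It stood at 1169, 1378, 1796 and 1886 CPM in WT controls and at 3317, 2515, 1879.5 and 2464 CPM in alcohol-exposed WT mice. It stood at 977.6, 881.9, 1454 and 742.5 CPM in 3xTg-AD controls and at 2030.4, 967.9, 2156 and 1501.5 CPM in alcohol-exposed 3xTg-AD mice. The group means were 1557, 2544, 1014 and 1664 CPM, with SDs of 340.9, 590.4, 309 and 543.9, and exposed WT mouse 17 lay just under the highest WT control. For alcohol the log2 fold change was 0.67 in WT mice (SE 0.243, adjusted p = 0.432) and 0.73 in 3xTg-AD mice (SE 0.248, adjusted p = 0.484), and the value was -0.66 in 3xTg-AD versus WT controls (SE 0.249, adjusted p = 0.697, edgeR). Its interaction was 0.07 (SE 0.345). With alcohol in 3xTg-AD mice, Sst passed in 2 of 24 alternatives, without exposed mouse 31 (adjusted p = 0.00573, edgeR) and without the filter on low counts (0.00263). In non-neuronal nuclei Sst averaged 262.6, 344.9, 270.5 and 289.7 CPM in the 4 groups, in that order.

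Vip in Vip-like nuclei did not pass the test in any contrast, and came nearest to it with alcohol in 3xTg-AD mice. It stood at 1969, 1714.5, 2466 and 2773 CPM in WT controls and at 3705, 3327, 3893 and 2893 CPM in alcohol-exposed WT mice, groups that did not overlap. It stood at 2387, 1717, 2911 and 1532.5 CPM in 3xTg-AD controls and at 4052, 2423, 3422 and 3474 CPM in alcohol-exposed 3xTg-AD mice, where mouse 31 was within the range of the controls. The log2 fold change was 0.57 in WT mice (SE 0.161, adjusted p = 0.141) and 0.66 in 3xTg-AD mice (SE 0.161, adjusted p = 0.0667, edgeR), with an interaction of 0.09 (SE 0.227). The second passed the threshold in 6 of 24 alternatives, among them those without exposed 3xTg-AD mouse 31 (adjusted p = 0.00494), 3xTg-AD control mouse 12 (0.00698) or 14 (0.00217) or WT control mouse 36 (0.036), and its adjusted p ran from 0.00217 to 1. Vip was above WT controls in alcohol-exposed 3xTg-AD mice at an unadjusted p under 0.05 in 11 of 18 sets, among them Vip-like, GABAergic-like and all nuclei, with the smallest adjusted p in Astrocyte-like nuclei (0.85, SE 0.234, adjusted p = 0.0546, edgeR). The sets overlap, since the sums include the Vip-like nuclei. In GABAergic-like nuclei, WT control mouse 27, with its large unnamed cluster, stood at 115.1 CPM of Vip. The other WT controls stood at 250.1, 368.8 and 236.4 CPM, and the fit of that set without mouse 27 is not given here. Over the non-neuronal nuclei Vip averaged 49.8 ± 9.79, 72.9 ± 14.9, 77 ± 13.7 and 81.6 ± 24.2 CPM in WT controls, exposed WT mice, 3xTg-AD controls and exposed 3xTg-AD mice (n = 4). The part of free RNA in these values was not tested.

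Crh and Penk, the other peptides of Vip-like nuclei, did not pass the test either. Crh stood at 58.6, 67.2, 95.2 and 100.8 CPM in WT controls and at 117.1, 115.7, 105.4 and 128.8 CPM in exposed WT mice. It stood at 64.2, 65.5, 85.9 and 37.7 CPM in 3xTg-AD controls and at 83.6, 201.9, 100.8 and 117.8 CPM in exposed 3xTg-AD mice. The WT groups did not overlap, the 3xTg-AD groups overlapped by 1 mouse, and mouse 31 was the highest of all. For alcohol the log2 fold changes were 0.47 in WT mice (SE 0.316, adjusted p = 0.707) and 1 in 3xTg-AD mice (SE 0.324, adjusted p = 0.358, edgeR). Penk in Vip-like nuclei ranged from 40.3 to 190.5 CPM in WT controls, 122.9 to 197.3 in exposed WT mice, 67.9 to 109.1 in 3xTg-AD controls and 58.9 to 139.2 in exposed 3xTg-AD mice, groups that overlapped. Over all nuclei Penk stood at 16.6, 27.9, 7.71 and 9.92 CPM in WT controls, of which the first and second are the mice with high Gm42418. In the other groups it ran from 7 to 14.1 CPM, the highest being 3xTg-AD control mouse 12, the third mouse with high Gm42418. Mouse 12 also held 152 of the 351 striatal projection neuron-like nuclei, and WT control mouse 27 held 130 of the 379 Meis2-like nuclei. The Penk fit over all nuclei without these cells is not given here. The log2 fold change of exposed 3xTg-AD mice versus WT controls was -0.92 over all nuclei (SE 0.325, adjusted p = 0.118) and -1.17 in L2/3 IT-like nuclei (SE 0.393, adjusted p = 0.12, edgeR).

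Npy was not called in the tested classes where it was highest. In Lamp5-like nuclei it stood at 867.9, 408.5, 571.1 and 932.7 CPM in WT controls and at 1302, 1029.5, 2103 and 1119.7 CPM in exposed WT mice. It stood at 216.5, 400.4, 853.9 and 464.6 CPM in 3xTg-AD controls and at 865.4, 336.2, 580 and 1213 CPM in exposed 3xTg-AD mice. The WT groups did not overlap and mouse 17 was far above the rest (log2 fold change 0.96, SE 0.424, adjusted p = 0.617, edgeR), while the 3xTg-AD groups overlapped (0.54, SE 0.48, adjusted p = 0.9). The thinned share of Lamp5-like nuclei with an Npy UMI was 54.4% ± 7.71 in exposed WT mice, 39.1% ± 9.16 in WT controls and 38.5% ± 11.1 in exposed 3xTg-AD mice (n = 4; exact permutation p = 0.0286 for the first against each of the others, adjusted p = 0.321). Over all mice it was 40.4% ± 12.5 (n = 16), against 11.2% ± 3.03 of non-neuronal nuclei. In Sst-like nuclei Npy averaged 270.6 ± 68.4, 396.9 ± 29.4, 195.4 ± 28 and 337.4 ± 131.4 CPM in the 4 groups, and the log2 fold change with alcohol was 0.81 in 3xTg-AD mice (SE 0.206, adjusted p = 0.142) and 0.49 in WT mice (SE 0.195, adjusted p = 0.434, edgeR). The first passed in 2 of 24 alternatives, without exposed 3xTg-AD mouse 31 (adjusted p = 0.00106, edgeR) and without the filter on low counts (0.00602).

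Cck in Sncg-like nuclei stood at 819.5, 999.2, 1494.5 and 1069.5 CPM in WT controls and at 1678, 1854, 1509 and 1257 CPM in exposed WT mice. It stood at 682.3, 1031, 1699.9 and 1251 CPM in 3xTg-AD controls and at 1721, 1167, 1758 and 1441 CPM in exposed 3xTg-AD mice. The groups overlapped in both genotypes, and 3xTg-AD control mouse 12 was the lowest. Fold changes with alcohol were, on the log2 scale, 0.54 in WT mice (SE 0.192, adjusted p = 0.601) and 0.4 in 3xTg-AD mice (SE 0.187, adjusted p = 0.743, edgeR). Over all 20 sets the fold change of Cck in WT mice with alcohol lay between 0.26 and 0.61, non-neuronal classes included.

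Pdyn in Sst-like nuclei came nearest to the threshold between the alcohol-exposed mice of both genotypes and was not called. It stood at 153.4, 90.9, 158.1 and 162.9 CPM in exposed WT mice and at 115.4, 83.1, 98.6 and 94 CPM in exposed 3xTg-AD mice. All but mouse 7 of the exposed WT mice were above all 4 exposed 3xTg-AD mice (log2 fold change -0.58, SE 0.197, adjusted p = 0.329, edgeR). Over all nuclei Pdyn stood at 18.7, 13.4, 13 and 16.1 CPM in exposed WT mice and at 9.84, 8.12, 8.51 and 7.41 CPM in exposed 3xTg-AD mice, groups that did not overlap (-0.82, SE 0.194, adjusted p = 0.0519, edgeR). It passed the threshold in 6 of 25 alternatives, with adjusted p-values from 0.0084 to 0.175. WT controls ran from 6.03 to 14.3 CPM and 3xTg-AD controls from 7.58 to 12.4, so that WT controls overlapped with both exposed groups.

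Cort in Sst-like nuclei, compared between the alcohol-exposed mice of both genotypes, was not called either. It stood at 10.4, 35.4, 18 and 26 CPM in exposed WT mice and at 64.6, 40.2, 49.3 and 56.4 CPM in exposed 3xTg-AD mice, with no overlap. The log2 fold change was 1.34 (SE 0.356, adjusted p = 0.089, edgeR), and it passed in 5 of 23 alternatives at adjusted p-values from 0.0192 to 0.86. WT controls ran from 7.42 to 59 CPM, wider than the gap between the exposed groups. In Pvalb-like nuclei Cort averaged 34.1 ± 14.3 CPM in WT controls, 49.4 ± 21.8 in exposed WT mice, 56.2 ± 17.8 in 3xTg-AD controls and 60.3 ± 16.5 in exposed 3xTg-AD mice, with a log2 fold change of 0.86 between the last and the first (SE 0.285, adjusted p = 0.145, edgeR).

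**Figure D4:**
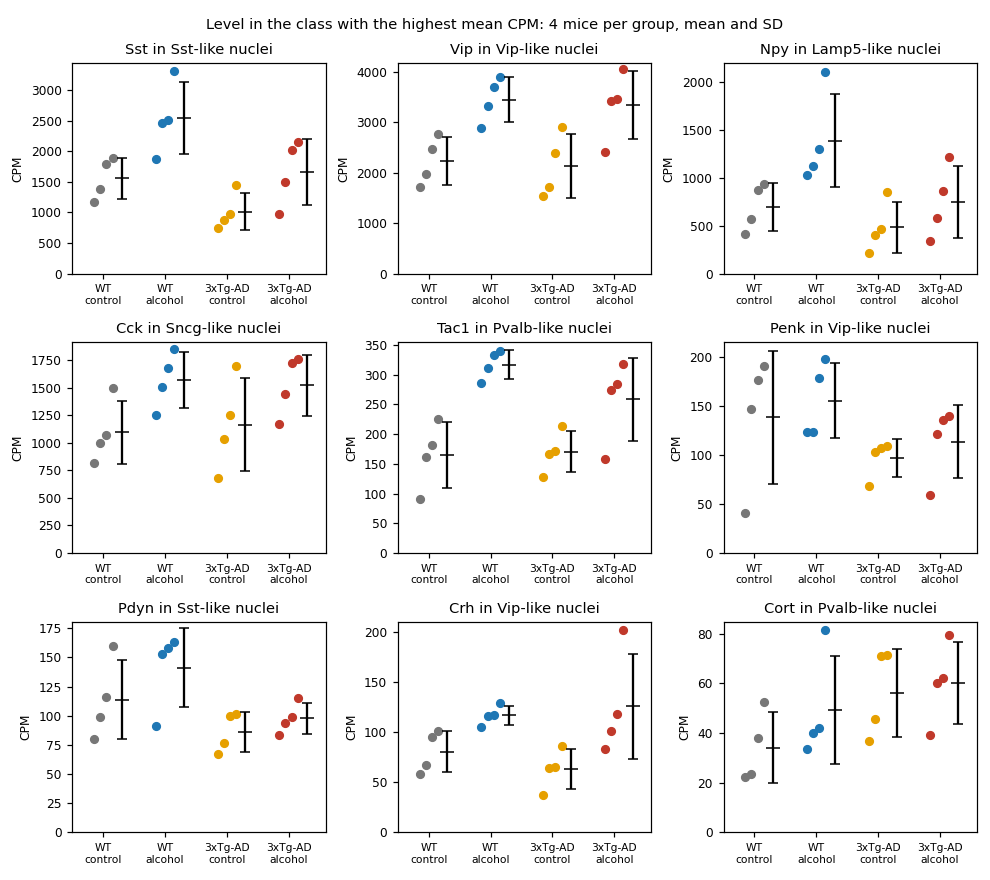
CPM (linear axis from 0) of each gene in its class with the highest mean, with 1 point per mouse, sorted within a group, and the mean and SD of 4 mice beside them. Tac1 in Pvalb-like nuclei separates the WT groups, at 91.3 to 225.7 CPM against 285.3 to 339.4, as do Vip and Crh in Vip-like and Npy in Lamp5-like nuclei, which were not called, and in the other panels the WT groups overlap. The share of all genes that separate the WT groups was not counted. Of all gene and class pairs, 9.59% had an unadjusted p under 0.05 between these groups (edgeR).

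The shares of 6 classes among the GABAergic-like nuclei were compared in 30 tests, of which 0 passed after adjustment and 0 were under 0.05 before it (exact permutation, 4 mice against 4, smallest adjusted p = 0.571). Of 45 tests of the thinned share of nuclei with a UMI, 0 passed after adjustment and 4 were at 0.0286, the smallest p that the design allows. With that limit, most tests of a family would have to reach it together for any to pass, so that the adjusted values do not show that shares were alike.

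The receptors, processing enzymes and other neuropeptides of the pathway were read from lists written with the members. Of 22 receptors 18 were in the table, and 0 of 101 pairs of a receptor and a class were called in any contrast by edgeR or DESeq2, with 17 at an unadjusted p under 0.05 in exposed 3xTg-AD mice versus WT controls and a median log2 fold change of -0.09. Of all pairs, 1.6% were called in that contrast and 13.7% had an unadjusted p under 0.05 (edgeR). In the other contrasts 0.000625% to 0.479% of all pairs were called, so 0 of 101 does not show that receptors were unchanged. The receptors named here, by their UMIs over all nuclei and not as a ranking of expression, were Cckbr, the main cholecystokinin receptor of the brain, at 61.8 ± 14.8 CPM in WT controls and 57.6 ± 4.82 in exposed 3xTg-AD mice, and Adcyap1r1, the receptor of the peptide PACAP, at 58.4 ± 9.33 and 54.7 ± 5.7 (CPM after TMM normalization, n = 4). Their log2 fold changes were -0.1 (SE 0.151) and -0.09 (SE 0.135, adjusted p = 0.76 for both, edgeR).

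Of 19 genes of peptide processing and release 18 were in the table, and in exposed 3xTg-AD mice versus WT controls 3 of 293 pairs were called, all lower (1.02%, against 1.6% of all pairs), with a median log2 fold change of 0.02. Pcsk1, the convertase that cuts many precursors, stood at 36.6, 49.3, 38 and 31.1 CPM over all nuclei of WT controls and at 28.4, 23, 24.3 and 18.8 CPM in exposed 3xTg-AD mice, after TMM normalization. Exposed WT mice averaged 30.1 ± 3.39 and 3xTg-AD controls 31 ± 6.06 CPM. All 4 exposed 3xTg-AD mice were below all WT controls (log2 fold change -0.71, SE 0.161, adjusted p = 0.021, edgeR), and it fell in glutamatergic-like nuclei as well (-0.69, SE 0.166, adjusted p = 0.0278). Chgb, a granin that packs dense-core vesicles, was called lower in VLMC-like nuclei (-1.39, SE 0.35, adjusted p = 0.042, edgeR), where WT controls had 3 mice with enough nuclei. It averaged 632.6 ± 107.1 CPM in these, 384.9 ± 129.4 in exposed WT mice, 313.5 ± 144.7 in 3xTg-AD controls and 230.9 ± 54.7 in exposed 3xTg-AD mice. VLMC-like nuclei are non-neuronal, and the part of free RNA in these Chgb values was not tested. In the other 5 contrasts 0 pairs of this list were called by edgeR or DESeq2. At an unadjusted p under 0.05 there were 56 of 293 pairs in alcohol-exposed WT mice versus WT controls, where 9.59% of all pairs were. In the other 4 there were 9 to 45 of 293, where 4.01% to 9.51% of all pairs were.

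Of 28 other neuropeptides 23 were in the table, and in exposed 3xTg-AD mice versus WT controls 4 of 78 pairs were called (5.13%, against 1.6% of all pairs), 1 higher and 3 lower, with a median log2 fold change of 0.16. Pnoc, the precursor of nociceptin, stood at 28.3, 29.8, 79.1 and 92 CPM in the Lamp5-like nuclei of WT controls and at 144.3, 106.3, 166.6 and 153.6 CPM in exposed 3xTg-AD mice, after TMM normalization. The first and second values are WT control mice 26 and 27, which stand apart in Gm42418. The Pnoc call with Gm42418 as a covariate is not given here. The groups did not overlap (log2 fold change 1.33, SE 0.35, adjusted p = 0.048, edgeR), and exposed WT mice, at 111.5 to 169.8 CPM, overlapped with the exposed 3xTg-AD mice. Hcrt, the hypothalamic orexin precursor, fell over all nuclei from 4.75 ± 1.53 CPM in WT controls to 1.96 ± 0.338 in exposed 3xTg-AD mice (-1.26, SE 0.247, adjusted p = 0.00927, edgeR) and to 1.96 ± 0.355 in 3xTg-AD controls (-1.26, SE 0.253, adjusted p = 0.0285, edgeR). Exposed WT mice averaged 3.4 ± 0.734 CPM of Hcrt over all nuclei. WT control mice 26 and 27, which stand apart in Gm42418, had 6.16 and 5.86 CPM, and mice 28 and 36 had 4.07 and 2.93. 3xTg-AD control mouse 12, which also stands apart, had 1.63 CPM. These levels are a few CPM only, and the Hcrt calls with Gm42418 as a covariate are not given here. Hcrt was called in glutamatergic-like nuclei in both contrasts too. Its 2 sets were the only calls of the list in 3xTg-AD controls versus WT controls (2.56% of 78 pairs, against 0.23% of all pairs). Cartpt, the precursor of the CART peptide, was lower in glutamatergic-like nuclei of exposed 3xTg-AD mice, at 1.52 ± 0.294 against 4.33 ± 1.99 CPM in WT controls, while alcohol-exposed WT mice had 2 ± 0.328 and 3xTg-AD controls 2.15 ± 1.6 CPM (-1.49, SE 0.394, adjusted p = 0.0443, edgeR). WT control mice 26 and 27 and 3xTg-AD control mouse 12, which stand apart in Gm42418, had 7.18, 4.11 and 4.49 CPM. WT control mice 28 and 36 had 2.64 and 3.39 CPM. The Cartpt call with Gm42418 as a covariate is not given here. In the other 3 contrasts without a call, between 0 and 2 pairs were called by DESeq2. There 7 to 19 of 78 had an unadjusted p under 0.05, where 9.14% to 9.59% of all pairs did. In the interaction 1 of 78 did, against 4.01% of all pairs.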

How the data were processed

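Nuclei of the PFC were profiled with the 10x Genomics 3′ v3.1 chemistry. Per the labels, the authors aligned reads to mm10 with Cell Ranger 6.1.1 (STAR) and deposited 1 table of raw UMI counts per gene and nucleus, without normalization; the limits of their filter on nuclei are not given in the sources used here, and the table holds somewhat more nuclei than the paper states. All nuclei were used. Free RNA in droplets was not subtracted by the authors as far as stated, and 3′ UMI counts cannot rank genes against each other.

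Nuclei were clustered with scanpy 1.11.5 (2000 variable genes, 30 components, 20 neighbors, Leiden at 1.5 and 1.2) without the 9 members and named from marker lists. No doublet caller was run; 1296 nuclei (1.13%) with at least 2 UMIs of Slc17a7 and at least 2 of Gad1 and Gad2 together were left out in an alternative. Counts summed per mouse entered edgeR 4.0.16 under R 4.3.3 (normalization by TMM, filterByExpr, robust quasi-likelihood, 1 mean per group) for classes with at least 10 nuclei in at least 3 mice of every group, and with DESeq2 1.42.0 as an alternative. Single values were tested by exact permutation, two-sided; p-values measure the spread between mice. CPM is the count scaled to 1000000 UMIs of a mouse and class. On simulated counts for exposed 3xTg-AD mice versus WT controls, 67% of genes changed by a log2 fold of 1 and 100% of those changed by 2 were recovered in Pvalb-like nuclei (8026 genes). Over all nuclei the shares were 74.7% and 88%, and in Sst-like nuclei 68.4% and 97.8%. From 8 to 12 unchanged genes were called in each set. Many genes were changed at once, and recovery where few change, as in exposed WT mice versus WT controls, was not simulated.

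Named genes were all members, for each the 3 genes of highest Pearson correlation of log2(CPM + 1) over classes among genes reaching 10 CPM, and of the lists of receptors, processing and release, and other neuropeptides those called in exposed 3xTg-AD mice versus WT controls, at most 5 a list, or else the 2 of highest level. The members and lists were chosen with earlier results of these data known. The comparison of classes with non-neuronal nuclei was added after seeing the data. Part of the genetic make-up of the 3xTg-AD model and 1 comparison of sequences are not reported here.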

Additional observations from a re-analysis of the deposited data

Results flagged for a closer look

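In 72 groups of 4 mice, 3 single mice stood apart from the other 3 of their group by Dixon's test, where chance flags about 1 in 20 groups. Over all nuclei, Penk stood at 8.1 CPM in WT alcohol mouse 18, below the 10.2 to 10.6 CPM of the other WT mice exposed to alcohol. In Vip-like nuclei, Penk stood at 67.9 CPM in 3xTg-AD control mouse 21, against 103 to 109.1 CPM in the other 3xTg-AD controls. In Sst-like nuclei, Pdyn stood at 90.9 CPM in WT alcohol mouse 7, against 153.4 to 162.9 CPM in the other mice of that group.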

How the results depend on the processing

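The counts of called pairs were small and moved with the setting. For exposed 3xTg-AD mice versus WT controls, 0 calls became 2 with DESeq2, 4 without the filter on low counts, 1 without nuclei that held UMIs of both neuronal kinds, 1 without Meis2-like and striatal projection neuron-like nuclei, and 0 to 5 with a mouse left out (5 without 3xTg-AD alcohol mouse 31, 4 without WT control mouse 28 or 3xTg-AD control mouse 12). For 3xTg-AD versus WT controls, 0 became 1 without the filter and stayed 0 with any mouse left out. For exposed WT mice versus WT controls, 2 became 5 with DESeq2, 4 without the filter, 0 with Gm42418 as a covariate, 0 with gated classes, and 0 to 3 with a mouse left out (0 without WT alcohol mouse 18, 1 without WT control mouse 26 or 36 or WT alcohol mouse 6 or 17). Without WT control mouse 36, Npy and Tac1 in Pvalb-like nuclei were both lost, so the 1 call there was of another pair. For exposed 3xTg-AD mice versus 3xTg-AD controls, 0 became 3 without the filter, 1 without the 3 mice with the most Gm42418, and 0 to 3 with a mouse left out (3 without 3xTg-AD alcohol mouse 31). For exposed 3xTg-AD versus exposed WT mice, 0 became 1 with DESeq2, 3 without the filter, 1 with the covariate, 2 without those 3 mice, and 0 to 2 with a mouse left out (2 without WT control mouse 27). The interaction stayed at 0 in all alternatives run.

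The 15 neighbouring classes that differed ran from 12 to 16 over the alternatives and from 13 to 17 with a mouse left out. The 23 gene and class pairs above non-neuronal nuclei became 15 in CPM, which divides by the UMIs of the nuclei, and 23 to 25 with a mouse left out. The tests of shares gave 0 passes in every alternative, which says nothing of stability, since 4 mice against 4 can hardly pass after adjustment. With gated classes, Npy in Sncg-like nuclei turned from 0.9 to -0.08 in exposed 3xTg-AD mice versus 3xTg-AD controls, and the interaction of Tac1 in Pvalb-like nuclei from -0.35 to 0.03; neither was called. The cause of these changes was not tested. No paired analysis was possible because the mouse numbers in the labels differ between groups. Depth limits Penk, Pdyn, Crh and Cort, which passed the filter in 4 to 6 of 20 sets.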
